A study of Mus musculus with 8 samples.

Results

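The 9 genes described here are commonly used to recognise the cells that build and inhabit bone. They are the osteoblast genes Sp7, Ifitm5, Bglap, Dlx3 and Dlx5 and the osteocyte genes Dmp1, Phex, Mepe and Sost. They were chosen by name, and their probes are all non-control probes whose RefSeq transcript belongs to a listed gene. Of the 56605 probes on the array, 11 belonged to these genes, with 2 probes each for Sp7 and Phex, of which the brighter was tested, and 1 for each other gene. A gene was tested if at least 4 of the 8 arrays had its probe well above background. This held for 8 of the 9 genes, on all 8 arrays each, and they were among 23105 features tested. Sost did not pass.

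The samples were femoral growth plates of 12-day-old littermate mice, 4 labelled CreTW and 4 labelled Cre. Each mouse gave 100 ng of total RNA to 1 Agilent array of 1 colour. As background on this study, both genotypes carry a Cre recombinase that acts in cartilage, so the Cre mice are controls for the recombinase itself. The CreTW mice carry in addition a mutant Twinkle, the helicase of mitochondrial DNA replication, that the recombinase switches on. The labels used here name neither the promoter that drives Cre nor the strain or the sex of the mice. Replicate numbers name single mice, and the labels do not say that they join mice across genotypes.

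The growth plate ends in hypertrophic cartilage, which blood vessels, osteoclasts and osteoblasts invade and replace by bone. Osteoblasts arise under the transcription factors Runx2 and then Sp7, lay down a collagen matrix and mineralise it. Some are buried in that matrix and become osteocytes, which switch on Dmp1, Phex and Mepe, regulators of mineral and phosphate, and later Sost, the Wnt inhibitor sclerostin.

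Promoter sequences are given to show how the regions before these genes differ, and their part in the values below was not tested. The 250 bases before each annotated start were read from RefSeq promoters on GRCm38.p6 for the 6 of 9 genes in the table used here, which did not list Sp7, Dlx3 and Dlx5. A few short motifs were searched on both strands. They were the RUNX core ACCACA or its complement TGTGGT, the GC box GGGCGG or CCGCCC that zinc finger factors of the SP family bind, and the homeodomain letters TAATTG or CAATTA. The lines below show 5 promoters with a match, 5′ to 3′ on the gene's own strand, with the motifs in capitals.
Bglap (chr3:88384467-88384716, minus strand): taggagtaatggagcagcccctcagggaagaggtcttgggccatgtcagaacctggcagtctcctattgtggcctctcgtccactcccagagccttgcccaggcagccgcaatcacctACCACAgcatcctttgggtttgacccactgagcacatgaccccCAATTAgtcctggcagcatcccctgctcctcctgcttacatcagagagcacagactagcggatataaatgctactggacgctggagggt
Ifitm5 (chr7:140950244-140950493, minus strand): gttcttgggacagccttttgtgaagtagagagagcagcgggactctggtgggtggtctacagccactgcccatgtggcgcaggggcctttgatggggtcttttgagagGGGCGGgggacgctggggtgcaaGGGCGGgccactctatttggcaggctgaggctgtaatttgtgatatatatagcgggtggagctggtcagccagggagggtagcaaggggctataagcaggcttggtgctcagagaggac
Dmp1, the second of its starts (chr5:104202367-104202616, plus strand): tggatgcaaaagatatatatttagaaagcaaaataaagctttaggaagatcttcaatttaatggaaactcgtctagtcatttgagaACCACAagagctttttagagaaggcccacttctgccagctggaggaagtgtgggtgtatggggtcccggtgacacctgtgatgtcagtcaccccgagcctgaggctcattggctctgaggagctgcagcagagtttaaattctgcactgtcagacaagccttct
Mepe (chr5:104325079-104325328, plus strand): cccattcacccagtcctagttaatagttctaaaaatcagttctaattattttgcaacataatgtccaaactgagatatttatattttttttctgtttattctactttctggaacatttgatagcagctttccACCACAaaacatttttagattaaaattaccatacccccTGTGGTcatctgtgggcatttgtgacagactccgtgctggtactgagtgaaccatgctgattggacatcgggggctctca
Phex (chrX:157415287-157415536, minus strand): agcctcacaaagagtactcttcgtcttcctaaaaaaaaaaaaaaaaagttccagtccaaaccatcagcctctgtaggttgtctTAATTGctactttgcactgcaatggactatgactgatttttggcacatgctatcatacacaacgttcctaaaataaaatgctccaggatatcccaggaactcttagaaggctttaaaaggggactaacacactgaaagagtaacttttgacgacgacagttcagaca
The RUNX core began 132 bases before the start of Bglap, 164 before that of Dmp1, and 118 and, on the opposite strand, 80 before that of Mepe. It was present in 3 of 7 promoters of these genes, against 14.0% of 32851 promoters of the same length. Ifitm5 held the GC box at 142 and 119 bases, which 32.7% of all promoters hold. The homeodomain letters lay 89 bases before the start of Bglap, on the opposite strand, and 167 before that of Phex, and occur in 7.17% of all promoters. No match overlapped another. The promoter at the other start of Dmp1 and that of Sost held none of the letters. A match is only a run of letters in this window.

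All values below are log2 of the processed intensity over the array's 75th percentile, which was 144 to 187 scanner units. Between 45.4% and 57.9% of probes were well above background on each array, no spot was saturated, and array number limits the precision. The tissue label was checked on its markers. Col2a1 and Acan, the main collagen and proteoglycan of cartilage, averaged 9.85 and 8.74 on CreTW arrays and 9.90 and 8.73 on Cre arrays. Transcripts of other cells were about as bright. Col1a2, a chain of type I collagen, averaged 10.27 on CreTW and 10.29 on Cre arrays. Acp5, an osteoclast marker, averaged 8.40 and 9.22. The samples were thus not cartilage alone, and CreTW cartilage and Cre cartilage below name the whole growth plate sample. Twnk, the gene of Twinkle, differed by -0.10 ± 0.21 (SE; limma, adjusted p = 0.89), but whether its probe detects the transgene is unknown, so no label is checked by it. The arrays lay on 1 slide in 2 rows, with replicates 1 and 2 of both genotypes in row 1 and replicates 3 and 4 in row 2.

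None of the 8 tested genes passed the test between genotypes, by limma with Benjamini-Hochberg adjustment over all features at a threshold of 0.05. The same threshold was passed by 80 features, or 0.346% of those tested, 53 of them higher (0.229%) and 27 lower (0.117%) in CreTW cartilage. All 8 differences were negative, CreTW minus Cre, as were 51.6% of all features. They ran from -0.83 for Ifitm5 to -0.10 for Dlx5, with a median of -0.33 against -0.01 over all features. Without adjustment, 2 of 8 genes (Ifitm5 and Dlx3) had a p under 0.05, as did 10.7% of all features, and both were lower in CreTW cartilage, as 4.80% of all features were at that level and 5.93% higher. The 4 CreTW arrays lay wholly apart from the 4 Cre arrays for 0 of 8 genes, and for 6.70% of all features, 2.81% with CreTW below Cre. RNA of whole tissue does not show which cells made a transcript, and cartilage cells may add to these values. Fewer osteoblasts or osteocytes, less of a transcript in each of them, and a change in other cells cannot be told apart.

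**Figure D1:**
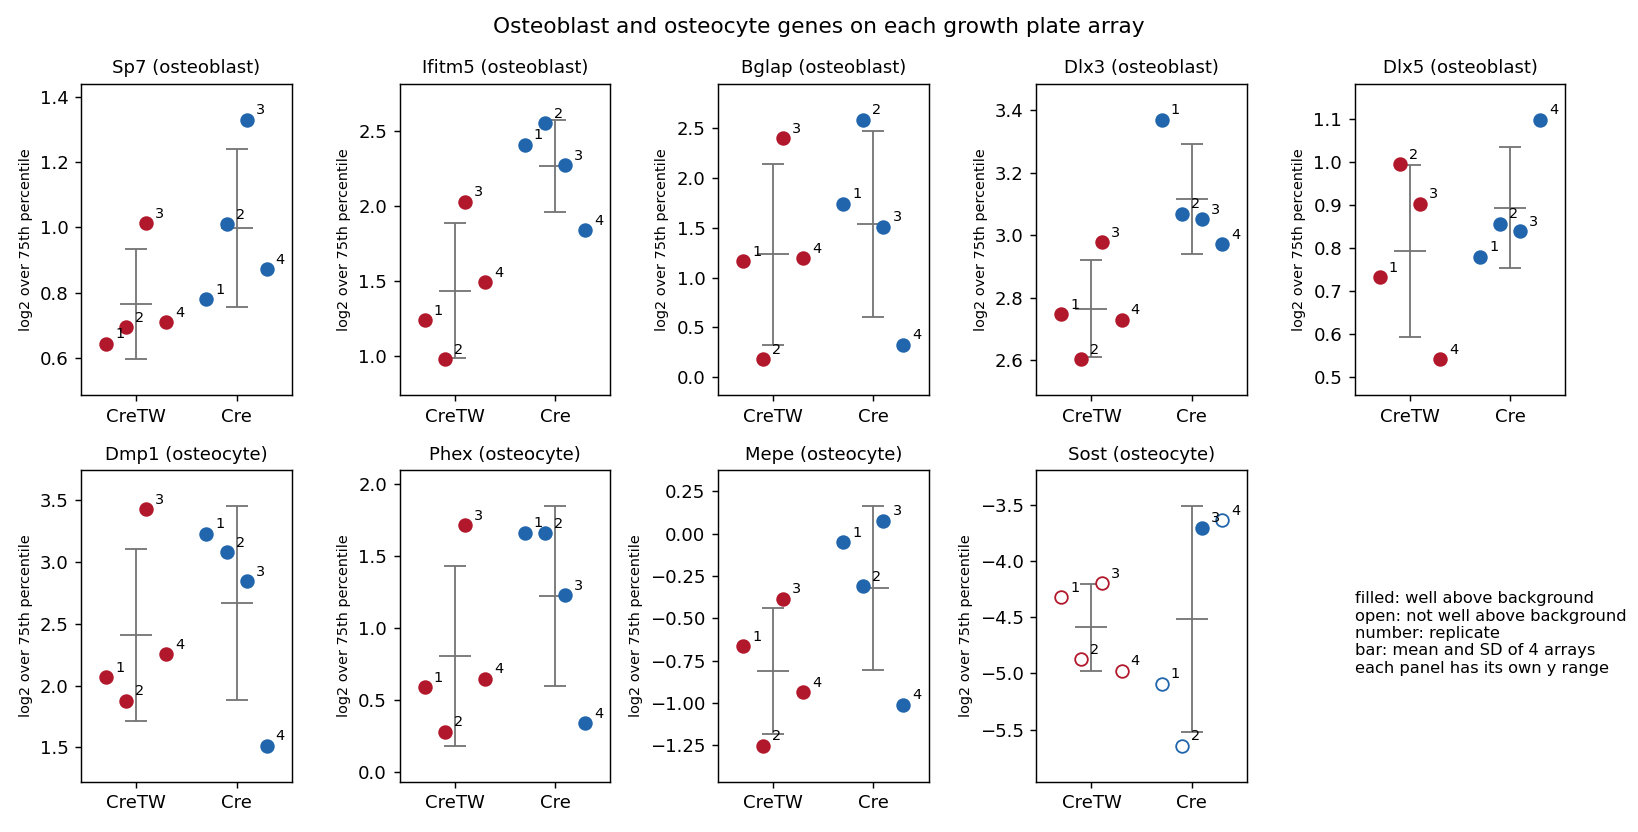
Log2 value over the array's 75th percentile (y axis, a separate range in each panel) for the 9 genes on each array, CreTW in red at the left and Cre in blue at the right. Points carry the replicate number, and bars show the mean and SD of 4 arrays. CreTW replicate 3 is the highest CreTW point for 7 of the 8 tested genes and Cre replicate 4 the lowest Cre point for 6. Open points were not well above background, which for Sost were all but 1.

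The transcription factors had the closest values among mice. Sp7, also called osterix, is required for osteoblast formation. Its values were 0.64, 0.69, 1.01 and 0.71 on CreTW arrays 1 to 4, against 0.78, 1.01, 1.33 and 0.87 on Cre arrays 1 to 4. CreTW replicates 1, 2 and 4 lay below all Cre arrays, and CreTW replicate 3 lay among them. The mean was 0.766 ± 0.168 in CreTW and 0.998 ± 0.240 in Cre cartilage (SD, n = 4 each), a difference of -0.23 ± 0.14 (SE; limma, adjusted p = 0.593). The second Sp7 probe, which was dimmer, differed by -0.18.

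Dlx3 and Dlx5 are homeodomain factors of the distal-less family that act in osteoblast differentiation. Dlx3 was at 2.75, 2.60, 2.98 and 2.73 on the CreTW arrays, against 3.37, 3.07, 3.05 and 2.97 on the Cre arrays. Only CreTW replicate 3 and Cre replicate 4 overlapped, and by less than 0.01. The difference was -0.35 ± 0.12 (95% interval -0.62 to -0.08), with an adjusted p of 0.348 by limma. The exact two-sided permutation p was 0.0571, where 0.0286 is the smallest that 4 against 4 arrays allow. It was 1 of 11 computed, 1 for each probe of the osteoblast and osteocyte genes. Dlx5 was at 0.73, 0.99, 0.90 and 0.54 on the CreTW arrays, against 0.78, 0.86, 0.84 and 1.098 on the Cre arrays. The genotypes overlapped for Dlx5, and the highest array was a Cre and the lowest a CreTW array, with a difference of -0.10 ± 0.12 (95% interval -0.38 to 0.18; limma, adjusted p = 0.79). Dlx6, the neighbour of Dlx5 on chromosome 6, differed by -0.30 ± 0.37 (limma, adjusted p = 0.791). Of the other 3 family members, Dlx1 and Dlx2 were well above background on 0 of 8 arrays and Dlx4, the neighbour of Dlx3 on chromosome 11, on 1 of 8.

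Ifitm5 had the largest difference of the 8 tested genes. It encodes BRIL, a small membrane protein of mineralising osteoblasts, and lies on chromosome 7 beside Ifitm2 and Ifitm1, members of the interferon-induced family to which it belongs by sequence. Its values were 1.24, 0.98, 2.03 and 1.49 on the CreTW arrays, against 2.41, 2.56, 2.27 and 1.84 on the Cre arrays. CreTW replicates 1, 2 and 4 lay below every Cre array, and CreTW replicate 3 lay above Cre replicate 4 alone. The mean was 1.44 ± 0.45 in CreTW and 2.27 ± 0.31 in Cre cartilage (SD, n = 4 each). This is a CreTW level 0.561 times that of Cre, or -0.83 ± 0.24 on the log2 scale (95% interval -1.38 to -0.29). The adjusted p was 0.269 by limma and the exact two-sided permutation p was 0.0571.

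Bglap encodes osteocalcin, the vitamin K-dependent protein of bone matrix, and had the widest values of the 8 genes. It was at 1.16, 0.18, 2.40 and 1.20 on the CreTW arrays, against 1.74, 2.59, 1.51 and 0.33 on the Cre arrays. CreTW replicate 3 and Cre replicate 2 were the high arrays, and CreTW replicate 2 and Cre replicate 4 the low ones. The genotypes differed by -0.31 ± 0.55 (95% interval -1.56 to 0.95; limma, adjusted p = 0.872). Bglap lies on chromosome 3 beside Bglap2 and Bglap3, near-identical copies, and a probe of one may read the others, so the 3 are uncertain as separate values. Bglap2 and Bglap3, picked here after their values were seen, had the same high and low arrays within each genotype and differed by -0.08 ± 0.52 and -0.05 ± 0.50.

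Among the osteocyte genes, Dmp1 encodes an acidic matrix protein that governs mineralisation and phosphate balance. Its values were 2.07, 1.88, 3.43 and 2.25 on the CreTW arrays, against 3.23, 3.08, 2.84 and 1.51 on the Cre arrays. The highest of all 8 arrays was CreTW replicate 3 and the lowest Cre replicate 4, each outside the other 3 arrays of its genotype. The difference was -0.26 ± 0.45 (95% interval -1.27 to 0.76; limma, adjusted p = 0.864). Phex encodes a cell-surface endopeptidase whose loss causes X-linked hypophosphataemia. It was at 0.59, 0.28, 1.71 and 0.65 on the CreTW arrays, against 1.66, 1.66, 1.23 and 0.34 on the Cre arrays. Its order of arrays was close to that of Dmp1, with a difference between genotypes of -0.42 ± 0.38 (95% interval -1.28 to 0.44; limma, adjusted p = 0.714). The second Phex probe differed by -0.17 and also had CreTW replicate 3 highest and Cre replicate 4 lowest within their genotypes.

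Mepe encodes a matrix phosphoglycoprotein that limits mineralisation. It was at -0.67, -1.25, -0.38 and -0.94 on the CreTW arrays, against -0.05, -0.31, 0.08 and -1.01 on the Cre arrays. All 4 CreTW arrays lay below Cre replicates 1 to 3, and Cre replicate 4 lay among the CreTW arrays. The difference was -0.49 ± 0.26 (95% interval -1.09 to 0.12; limma, adjusted p = 0.557). Sost, the marker of mature osteocytes, was well above background on 1 of 8 arrays, Cre replicate 3, at 14.4 scanner units. On the other arrays its signal was 5.87 to 8.79 units in CreTW and 2.89 to 13.1 units in Cre cartilage. No fold is given for it, since both genotypes were at or near background.

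**Figure D2:**
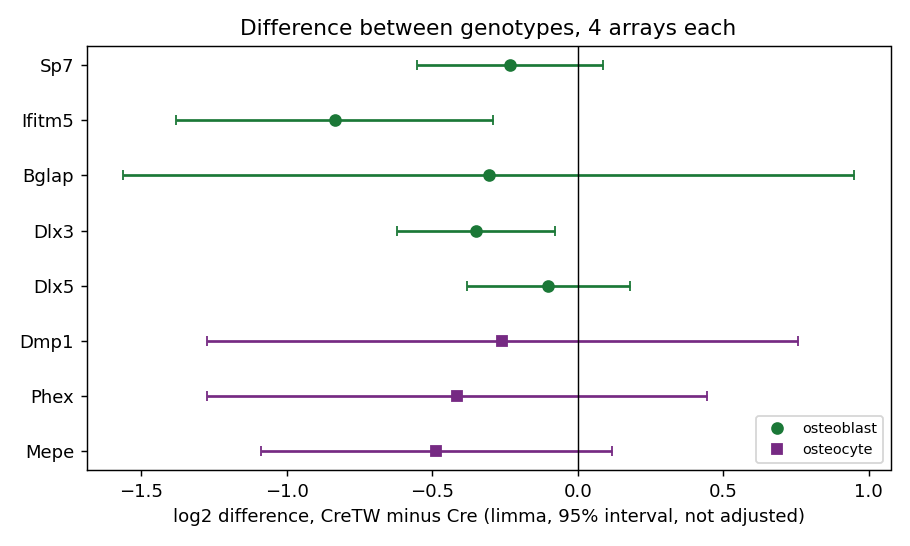
Log2 difference between genotypes (x axis, CreTW minus Cre, from limma) for the 8 tested genes, with 95% intervals that are not adjusted for the number of genes. All 8 points lie left of 0, and the intervals of Ifitm5 and Dlx3 do not reach it. The interval of Bglap is the widest, from -1.56 to 0.95.

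The spread among mice of 1 genotype set apart the matrix and osteocyte genes from the transcription factors. The residual SD of the fit was 0.92 for Bglap, 0.74 for Dmp1, 0.62 for Phex and 0.43 for Mepe, against a median of 0.19 over all features. Their ranks among all features were at percentiles 98.9, 97.5, 95.6 and 88.2, in that order. Ifitm5, at 0.39, ranked at percentile 84.8. Sp7, Dlx5 and Dlx3 had residual SDs of 0.21, 0.17 and 0.17 and ranked at percentiles 55.2, 44.5 and 42.0. The median percentile was 95.6 for the 3 tested osteocyte genes and 55.2 for the 5 osteoblast genes. These positions describe the 8 mice and were not tested.

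**Figure D3:**
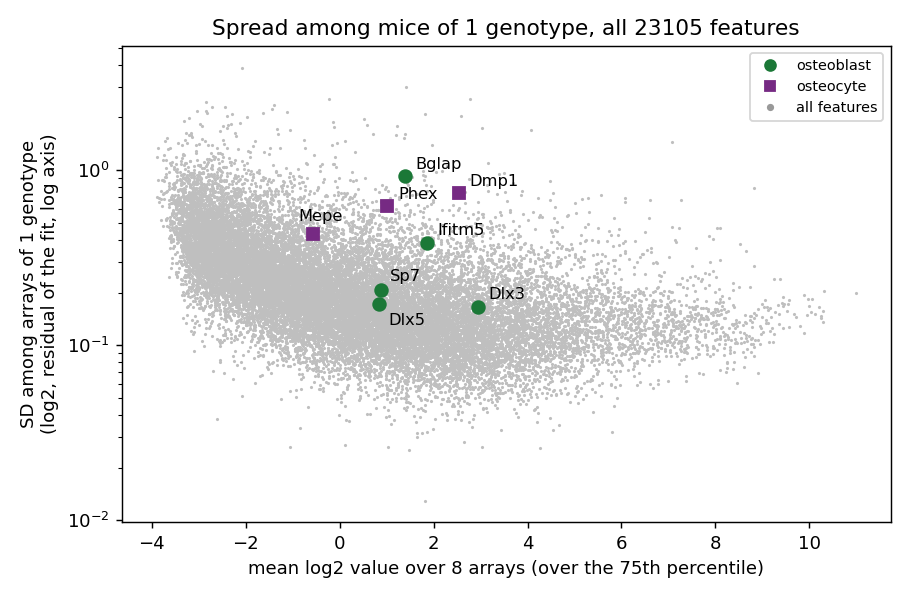
Residual SD of the fit (y axis, log2 units on a log axis) against the mean log2 value over 8 arrays (x axis) for all 23105 features in grey, osteoblast genes as green circles and osteocyte genes as purple squares. Bglap, Dmp1 and Phex lie above most features, at residual SDs of 0.62 to 0.92. Sp7, Dlx3 and Dlx5 lie inside the grey band, at 0.17 to 0.21.

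The same mice were high or low for most of the genes. CreTW replicate 3 was the highest CreTW array for 7 of 8 genes, against 26.1% of all features, and CreTW replicate 2 the lowest for 6 of 8, against 31.4%. Cre replicate 4 was the lowest Cre array for 6 of 8, against 24.9%. For Ifitm5, Bglap, Dlx3, Dmp1, Phex and Mepe, all of Cre replicates 1 to 3 and CreTW replicate 3 lay above the other 4 arrays, a split that 6.51% of all features shared. This split was picked after the values were seen and has no test. Dlx5 ran differently, with Cre replicate 4 as its highest array and CreTW replicate 4 as its lowest. Sp7 had Cre replicate 3 highest and CreTW replicate 1 lowest. Over all pairs of the 8 genes, the root mean square difference of centred log2 values over the 8 arrays was smallest for Dmp1 and Phex, at 0.155, and largest for Bglap and Dlx5, at 0.874.

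**Figure D4:**
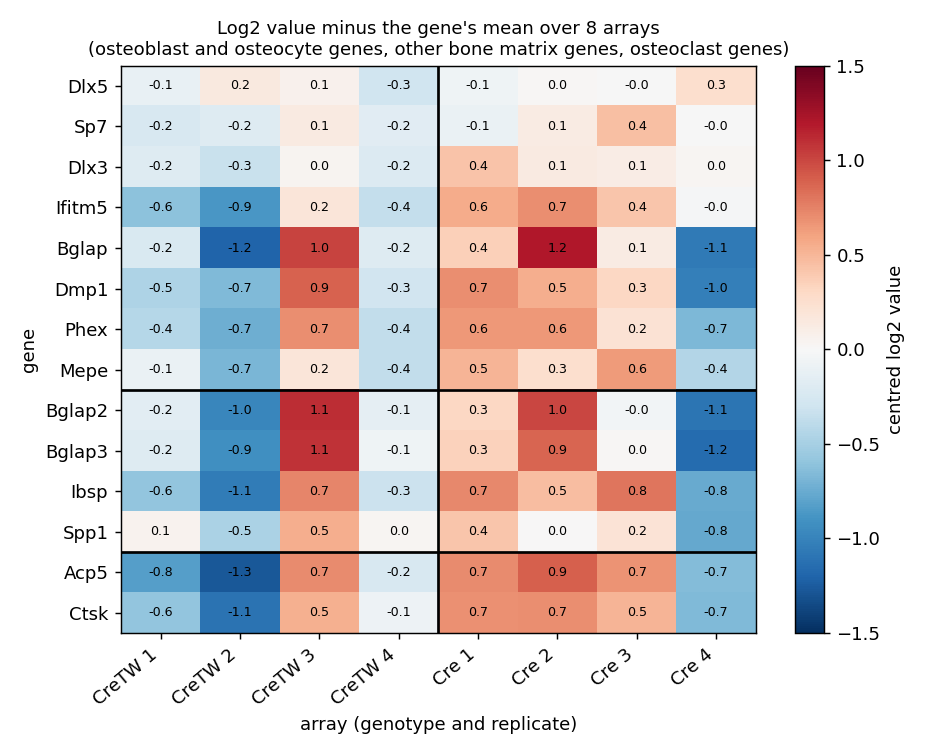
Log2 value minus the gene's mean over 8 arrays, in colour and as a number, with arrays in columns (CreTW at the left, Cre at the right) and genes in rows. Upper block, the 8 tested genes; middle block, Bglap2, Bglap3, Ibsp and Spp1; lower block, the osteoclast genes Acp5 and Ctsk. From Ifitm5 downward, CreTW replicate 2 and Cre replicate 4 are at or below 0 and CreTW replicate 3 is above it.

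Markers of osteoclasts, the cells that resorb cartilage and bone, and of endothelium, the lining of blood vessels, mostly had the same split. It held for 9 of 10 tested osteoclast markers and 8 of 9 endothelial markers. It held for 3 of 11 marrow, 2 of 11 hypertrophic chondrocyte, 2 of 15 perichondrium, tendon and fibroblast, 0 of 16 skeletal muscle, 0 of 6 erythroid and 0 of 11 chondrocyte markers. All 10 osteoclast markers had a negative difference, with a median of -0.82 against -0.01 over all features, and 0 of 10 passed the test. The brightest, Acp5 and Ctsk, the acid phosphatase and the collagen-cleaving protease of osteoclasts, differed by -0.81 ± 0.47 and -0.62 ± 0.41 (limma, adjusted p = 0.579 and 0.62). The summed level of the list was 283 to 1035 times the 75th percentile on CreTW arrays and 429 to 1194 times on Cre arrays. The mean centred log2 value of the list was -0.53, -1.25, 0.31 and 0.01 on the CreTW arrays, against 0.69, 0.75, 0.56 and -0.54 on the Cre arrays. Calcr, the calcitonin receptor, was well above background on 1 of 8 arrays. With this list score as a covariate, the differences were 0.64 for Bglap, 0.48 for Dmp1, 0.21 for Phex, -0.08 for Mepe, -0.43 for Ifitm5, -0.22 for Dlx3, -0.13 for Sp7 and -0.23 for Dlx5, and 0 of 8 genes passed. The endothelial list score was -0.10, -0.50, 0.44 and -0.20 on the CreTW arrays, against 0.23, 0.31, 0.26 and -0.43 on the Cre arrays. The summed endothelial level was 60.3 to 88.6 times the 75th percentile on CreTW arrays and 62.0 to 92.7 times on Cre arrays. The brightest, Egfl7, a secreted endothelial protein, and Emcn, endomucin, differed by -0.13 ± 0.13 and -0.27 ± 0.20 (limma, adjusted p = 0.746 and 0.659). The part of osteoclasts and of endothelium in the split of the arrays was not tested.

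The slide rows gave unlike values for the same genes. In row 1, with 2 arrays of each genotype, the differences were -1.49 for Bglap, -1.23 for Phex, -1.18 for Dmp1, -1.38 for Ifitm5 and -0.78 for Mepe. In row 2, which holds CreTW replicate 3 and Cre replicate 4, they were 0.88 for Bglap, 0.40 for Phex, 0.66 for Dmp1, -0.29 for Ifitm5 and -0.19 for Mepe. Bglap, Phex and Dmp1 thus had opposite signs in the rows. Dlx3 was at -0.54 in row 1 and -0.16 in row 2, Sp7 at -0.23 and -0.24, and Dlx5 at 0.05 and -0.25. Each row holds 2 arrays of each genotype, so the row as a block cannot change a difference. With that block 0 of 8 genes were called. Without CreTW replicate 3 the difference of Ifitm5 was -1.03 (adjusted p = 0.161) and that of Dmp1 -0.60 (adjusted p = 0.569). Without Cre replicate 4 they were -0.98 (adjusted p = 0.155) and -0.64 (adjusted p = 0.43), all by limma.

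Osteoblast and osteocyte genes were then set against each other. The mean difference was -0.37 over the 5 osteoblast genes and -0.39 over the 3 tested osteocyte genes. With the mean of the Cre arrays set to 0 for each gene, the osteoblast genes averaged -0.46, -0.67, 0.10 and -0.43 on the CreTW arrays, against 0.05, 0.25, 0.04 and -0.34 on the Cre arrays. The osteocyte genes averaged -0.52, -0.89, 0.40 and -0.53 on the CreTW arrays, against 0.42, 0.29, 0.19 and -0.91 on the Cre arrays. On each array the osteocyte mean had the sign of the osteoblast mean and lay further from 0. The osteoblast mean minus the osteocyte mean was 0.02 ± 0.22 in CreTW and 0.00 ± 0.40 in Cre cartilage (SD, n = 4 each). The genotypes overlapped, and the difference of 0.02 was smaller than either spread. No p is given, since the genes were chosen with results known.

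**Figure D5:**
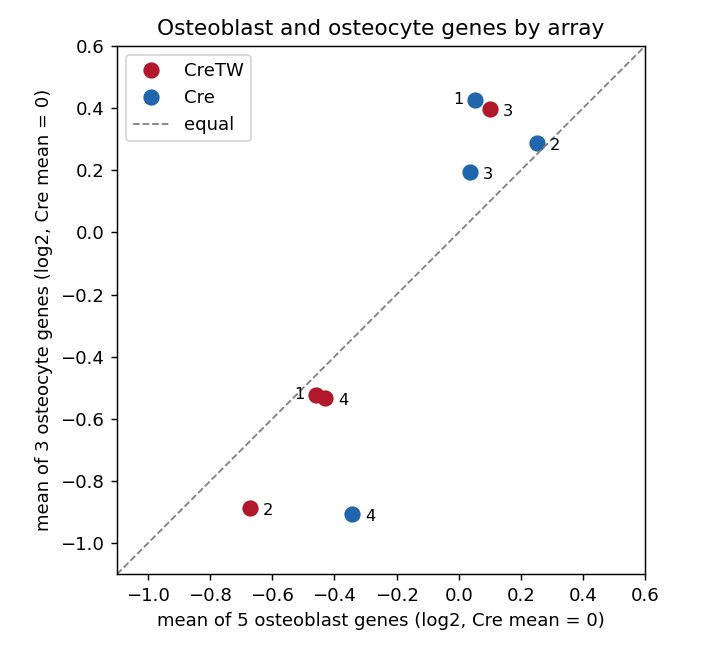
Mean of the 3 tested osteocyte genes (y axis) against the mean of the 5 osteoblast genes (x axis) on each array, in log2 with the Cre mean of each gene set to 0. Points are arrays with their replicate number, CreTW in red and Cre in blue, and the dashed line marks equal values. CreTW replicate 3 sits with Cre replicates 1 to 3, and Cre replicate 4 sits with the other CreTW arrays.

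Other genes were described from lists of 26 osteoblast and 19 osteocyte genes, which are not all particular to these cells. Panx3, Alpl, Spp1 and Ibsp of the osteoblast list and Enpp1 of the osteocyte list are also on the hypertrophic chondrocyte list. Which cells gave the values of the listed genes was not tested. Of the osteoblast list all 26 were tested, 18 had a negative difference, the median was -0.07 and 0 passed the test. Its 4 brightest genes were Col1a2 (-0.02 ± 0.12) and Col1a1 (-0.05 ± 0.12), the chains of type I collagen, Sparc (-0.06 ± 0.13), the matrix protein osteonectin, and Spp1 (0.07 ± 0.29), or osteopontin. Runx2, the factor above Sp7, differed by -0.21 ± 0.12 (limma, adjusted p = 0.577), and Vdr, the vitamin D receptor, by -0.83 ± 0.19 (limma, adjusted p = 0.186), the lowest adjusted p of the list. Both were singled out after their values were seen. Without adjustment 4 of 26 genes (15.4%) had a p under 0.05, against 10.7% of all features. The split of arrays described above held for 7 of 26 (26.9%), against 6.51% of all features, among them Ibsp, Bglap2, Bglap3, Col22a1, Tnfsf11 and Vdr.

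Of the osteocyte list 18 of 19 genes were tested, 5 had a negative difference and 13 a positive one, with a median of 0.05, and 0 passed. Fgf23, the phosphate-lowering hormone that Dmp1 and Phex restrain, had the brightest probe. Its mean was 7.14 in CreTW and 6.89 in Cre cartilage, against 2.41 and 2.67 for Dmp1. Whether the probe reads Fgf23 alone is unknown, so its level is uncertain. The Fgf23 probe was at 7.15, 7.28, 7.23 and 6.90 on the CreTW arrays, against 6.98, 6.77, 6.76 and 7.06 on the Cre arrays. The difference was 0.24 ± 0.12 (limma, adjusted p = 0.503), and CreTW replicate 4 lay below Cre replicates 1 and 4. Pdpn, podoplanin of the osteocyte's processes, was at 3.03, 3.05, 3.02 and 3.22 on the CreTW arrays, against 2.78, 2.41, 2.46 and 2.53 on the Cre arrays. The genotypes did not overlap for Pdpn, whose difference of 0.54 ± 0.10 missed the threshold (limma, adjusted p = 0.118). The others among the 4 brightest were Fbln7, a fibulin, at -0.21 ± 0.23, and Cd109, a membrane-anchored protein, at -0.08 ± 0.10. The genotypes also did not overlap for Wnt16, a Wnt ligand (0.87 ± 0.21), and Hyou1, a chaperone of the endoplasmic reticulum (-0.28 ± 0.08), so for 3 of 18 genes, against 6.70% of all features. Neither passed the test (limma, adjusted p = 0.209 and 0.272), and both were singled out after their values were seen. Of the 18, 5 (27.8%) had an unadjusted p under 0.05, against 10.7% of all features. The shared split held for 2 of 18 (11.1%), Dkk1 and Ptprz1, against 6.51% of all features.

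Dmp1, Mepe, Ibsp, Spp1 and Dspp form a run of adjacent matrix phosphoprotein genes on chromosome 5. Of these 4 were tested, 3 had a negative difference, and the median was -0.37. Ibsp, bone sialoprotein, lies between Dmp1 and Mepe. It was at 3.94, 3.48, 5.26 and 4.22 on the CreTW arrays, against 5.26, 4.997, 5.34 and 3.78 on the Cre arrays. It had the same 4 high and 4 low arrays as Dmp1 and Mepe, with a difference of -0.62 ± 0.44 (limma, adjusted p = 0.644). Spp1, the neighbour on the far side of Mepe, is also made by hypertrophic chondrocytes and osteoclasts. It missed that split narrowly, with Cre replicate 2 at 7.24, below CreTW replicates 1 and 4 at 7.28 and 7.26. Like Dmp1, Mepe and Ibsp, it had CreTW replicate 3 highest and CreTW replicate 2 and Cre replicate 4 lowest within their genotypes. Dspp, the dentine gene beside Dmp1, was well above background on 0 of 8 arrays.

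Markers of muscle and of fibrous tissue were read on the same arrays. All 16 skeletal muscle markers had a positive difference with a median of 3.66, and their summed level was 42.9 to 601 times the 75th percentile on CreTW arrays and 31.3 to 97.3 times on Cre arrays. The brightest, Tnni2 and Tnnt3, fast muscle troponins, differed by 0.31 ± 0.44 and 1.46 ± 0.66, the smallest differences of the list. Without adjustment 13 of 16 muscle markers (81.2%) had a p under 0.05 by limma, against 10.7% of all features. With the score of this list in the fit, Ifitm5 was at -0.89, Mepe at -0.55, Dmp1 at -0.52, Phex at -0.51 and Sp7 at -0.47. Dlx3 was at -0.34, Dlx5 at -0.19 and Bglap at -0.11, with 0 of 8 genes called. That fit was less precise, with an SE of 0.38 for Ifitm5 against 0.24 without the score. Of the 15 markers of perichondrium, tendon and fibroblasts, 14 had a positive difference with a median of 0.24. Their score was 0.13 to 0.35 on CreTW arrays and -0.54 to 0.05 on Cre arrays. Among them Col3a1 and Dcn, collagen III and decorin, differed by 0.39 ± 0.14 and 0.35 ± 0.13. None of these markers passed the test over all features, and their part in the values of the bone genes was not tested.

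The features closest to each set were found by the root mean square difference of centred log2 values over the 8 arrays. To the mean of the osteoblast genes, the closest were Arrb1, an arrestin (0.0587), Pgm2l1, a sugar phosphomutase (0.0643), Ppm1e, a protein phosphatase (0.0727), Emcn, the endothelial sialoprotein endomucin (0.0775), and Mfng, a glycosyltransferase acting on Notch (0.0781). To the mean of the 3 tested osteocyte genes, the closest included Hhex, a homeodomain factor (0.0929), 9130024F11Rik (0.107), Ctsc, a lysosomal protease (0.114), and Ralgps2, an exchange factor for Ral (0.126). The mean profiles themselves had SDs over the 8 arrays of 0.31 and 0.54. None of the features named here passed the test between genotypes.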

How the data were processed

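Total RNA of 8 growth plates, 4 CreTW and 4 Cre, was measured on Agilent arrays of 1 colour. The intensity values are the authors' scanner output. Per the file headers they come from Agilent Feature Extraction 11.5.1.1, are background-subtracted and refer to mm9. Per the labels the authors then used GeneSpring 14.9. Their deposited log2 table equals the log2 of these intensities minus a constant per array (r = 1 on 8 arrays) and served as an alternative.

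Spots of a probe were averaged without outlier flags, and log2 values were scaled to the 75th percentile of each array. Probes well above background on at least 4 arrays were kept, with the highest mean of a gene's probes. Probes were named through RefSeq transcripts (GRCm38.p6, for names and neighbours), where 32994 matched 1 symbol, 0 several and 23611 none. The fit was limma 3.58.1 in R 4.3.3 with no covariate and 6 residual degrees of freedom, adjusted by Benjamini-Hochberg over 23105 features, threshold 0.05. It was also run on simulated arrays with independent errors for each feature. Such arrays lack the order that many features share here, so that run cannot show how the fit behaves under it. Permutation tests were exact.

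The 9 genes, the marker lists and the covariates were chosen with earlier results of these data known. Named were all 9 genes, the 4 brightest and any called of the other osteoblast and osteocyte lists, the 2 brightest of each other list without a call, and the 5 features closest to each set, except any not reported here. The series describes the mice as separate animals, so p-values measure the spread among mice. Alternatives were another scaling, background correction, filter, probe rule, block or covariate, each slide row, and each array left out. Normexp used the median spot signal, since the files used here carry no mean signal.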

Additional observations from a re-analysis of the deposited data

Results flagged for a closer look

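In the Cre genotype, replicate 4 stood far below the other 3 arrays in 2 marker list scores, the mean centred log2 value of a list. Its osteoclast score was -0.54, with a gap to the nearest array of 0.854 of the range of the 4. Its endothelial score was -0.43, with a gap of 0.889 of the range. Both exceed Dixon's 95% critical value for 4 values. These were 2 of 44 groups of 4 arrays examined over the 9 genes, the 12 lists and the difference between osteoblast and osteocyte genes, and chance alone marks about 1 in 20. This array was also the lowest Cre array for Ifitm5, Bglap, Dlx3, Dmp1, Phex and Mepe, for none of which its gap passed that value.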

How the results depend on the processing

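Over 22 alternatives, 0 of the 8 tested genes passed the threshold by limma in any, with a lowest adjusted p of 0.142 (Ifitm5, normexp background correction). Of 176 differences, 166 were negative and 10 positive. This count overstates how far the signs were tried. The changed filters on dim probes and the blocks left each gene's difference as it was, Ifitm5 at -0.83 in each. Scaling to the array median and the authors' log2 table only moved all genes by a shared amount. Within row 2, 3 of 8 genes were positive and 5 negative. The fit that held the osteoclast score gave the same split of signs, 3 positive and 5 negative. Ifitm5, Dlx3, Sp7 and Mepe were negative in all 22, Ifitm5 from -1.38 to -0.29 and Mepe from -0.78 to -0.08. Bglap was positive with the perichondrium score as a covariate (0.31), without Cre replicate 2 (0.04) and without CreTW replicate 2 (0.04), beside the row and osteoclast values given above. The difference between osteoblast and osteocyte genes ran from -0.30 (slide row 2) to 0.34 (slide row 1). The features called were 80 in all, 42 to 75 without single arrays, 27 with no filter on dim probes, 53 with the slide row as a block, 42 with the osteoclast score, 4 with the muscle score and 1 with the perichondrium score. Within row 1 and within row 2 alone they were 0 and 0 by limma, each with 2 residual degrees of freedom. An unadjusted p under 0.05 by limma was reached by 3164 and 1216 of 23105 features, and by 6 and 0 of the 8 genes. With the replicate number as a replicate block 12 were called. The labels do not say that the numbers pair mice. The correlations of deviations between arrays of the same number were -0.01, -0.10, 0.31 and -0.03, and 1 of 4 CreTW arrays was closest to its own number. These values cannot decide whether any mice were paired. Where a count moved, the cause was not tested. Sost had no test at this signal over background.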

Other observations

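Lists of other cells in or beside the growth plate had no member past the threshold by limma over all features. Of 11 hypertrophic chondrocyte genes, 7 had a negative difference with a median of -0.15, and the brightest, Col10a1, collagen X of that zone, differed by 0.20 ± 0.16. Of 11 chondrocyte genes, 8 were negative with a median of -0.09. All 6 tested erythroid genes of 11 listed were negative with a median of -0.63. Of 11 tested marrow genes, 8 were negative with a median of -0.22, and of 9 endothelial genes 8 were negative with a median of -0.13.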
